A study of Mus musculus with 4 samples.

Results

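The genes described here are 9 transcription factors that direct the development and function of lymphocytes, namely Lef1, Tcf7, Bach2, Satb1, Ikzf1, Ikzf3, Foxp3, Gata3 and Tbx21. They were taken by symbol from the 52535 gene models of the count files, and all 9 were found and passed the filter on low counts. Foxp3, Tbx21 and Gata3 passed it only through the wild-type libraries, where they are higher. Their being tested is thus not independent of the direction of their change. RNA sequencing had been done on samples labelled as ducts, from the pancreas of C57BL/6 mice. There were 2 libraries labelled wild type (WT 1 and WT 2) and 2 labelled knockout (KO 1 and KO 2). The knockout genotype is Lats1fl/fl; Lats2fl/fl; Sox9-CreER, that is, floxed alleles of the kinases that restrain YAP and TAZ together with a tamoxifen-activated Cre driven by Sox9, a gene of duct cells. No source used here gives the age of the mice, the tamoxifen schedule, how the samples were isolated or the animals behind each library. The p-values therefore measure only the spread between these libraries, which may be technical.

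These factors are known as switches of lymphocyte fate. TCF-1 (encoded by Tcf7) and LEF1 are HMG-box proteins that bind beta-catenin and establish T cell identity, and both are high in naive T cells. Ikaros (Ikzf1) and Aiolos (Ikzf3) are zinc finger proteins of lymphoid cells, BACH2 restrains effector differentiation in B and T cells, and SATB1 organises chromatin in thymocytes. FOXP3, T-bet (Tbx21) and GATA3 are the lineage factors of regulatory, type 1 and type 2 T cells.

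Libraries held 3566387 to 5925601 counts. The targeted genes were not lower under the knockout label: Lats1 stood at 50.8 CPM (WT 1), 65.6 CPM (WT 2), 70.0 CPM (KO 1) and 79.2 CPM (KO 2), and Lats2 at 114 and 102 against 163 and 121 CPM, neither passing the test (edgeR adjusted p = 0.172 and 0.127). CPM are TMM-scaled counts relative to library size. Counts over whole gene models can include transcripts that lost only some exons, so they do not check the deletion. The YAP target Ctgf was at 34.6 and 31.5 CPM for wild type and at 1226 and 1288 CPM in the knockout-labelled libraries. Duct markers were present in all libraries, with a summed level over 8 genes of 974 and 1289 CPM for wild type and 7592 and 7932 CPM in the knockout-labelled libraries. Markers of other cells were present too. The 8 acinar markers summed to 42539 and 76381 CPM for wild type and to 150.1 and 3338 CPM in the knockout-labelled libraries, and the 10 macrophage markers to 298 and 265 against 3733 and 2663 CPM.

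All 9 lymphocyte factors were lower in the knockout-labelled libraries. The fall was smallest for Bach2, at 3.67-fold, and largest for Lef1, at 36.5-fold. Each of the 9 passed the quasi-likelihood test of edgeR, with p-values adjusted by Benjamini-Hochberg over 13990 genes, against a background of 20.2% of all tested genes that were called lower and 42.2% called changed in either direction. In each of the 9 both knockout-labelled libraries lay below both wild-type libraries, which was so for 36.8% of all tested genes. The 9 genes were chosen with earlier results of these data known. These shares therefore give a scale and are not independent support. The median log2 change was -3.50 over the 9 factors and -0.01 over all tested genes. In sum the 9 genes took 1277 and 1352 CPM in the wild-type libraries and 136 and 111 CPM in KO 1 and KO 2. In bulk RNA, fewer cells of a type and less RNA per cell cannot be told apart. Of the genes called changed, 52.1% were higher with TMM and 39.4% with upper quartile scaling, and all 9 factors passed as lower under both.

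**Figure D1:**
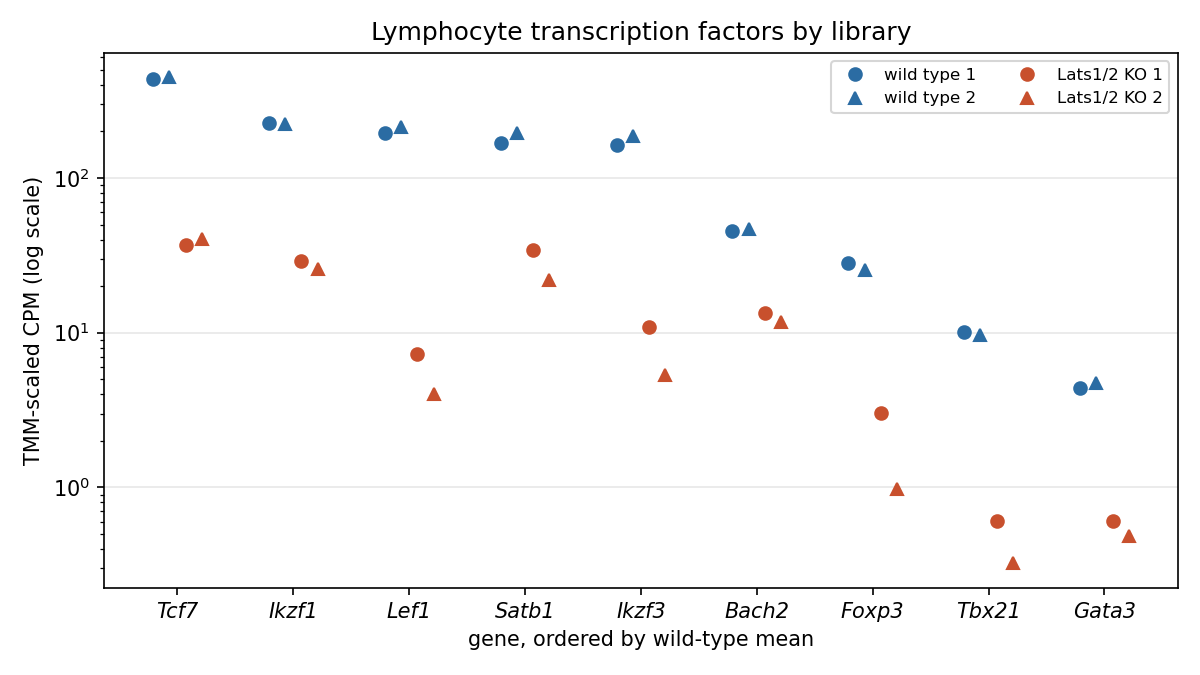
TMM-scaled CPM (log axis) of each lymphocyte transcription factor, ordered by wild-type mean, with 1 point per library: blue for wild type, orange for Lats1/2 KO, circles for replicate 1 and triangles for replicate 2. For every gene both orange points lie below both blue points, with the narrowest gap for Bach2 (45.3 and 47.0 against 13.5 and 11.7 CPM).

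Tcf7 (mm10, chromosome 11, 52252371 to 52283014, minus strand) was the most abundant of the factors, at 433 CPM (WT 1), 447 CPM (WT 2), 37.0 CPM (KO 1) and 40.5 CPM (KO 2). The replicates of each group lay close together and the groups were far apart. Its mean was 440 ± 9.50 CPM for wild type and 38.7 ± 2.43 CPM in the knockout-labelled libraries (SD, n = 2), and it fell by 3.50 ± 0.17 SE in log2 units (edgeR adjusted p = 1.18e-05). Lef1 (chromosome 3, 131110471 to 131224356, plus strand) stood at 195 and 212 CPM for wild type and at 7.24 and 4.05 CPM in the knockout-labelled libraries. Its means were 204 ± 12.0 and 5.65 ± 2.26 CPM (SD, n = 2), and it fell by 5.19 ± 0.27 SE in log2 units (edgeR adjusted p = 1.26e-05). Of all tested genes, 1.14% had a more negative change than Lef1 and 3.87% a more negative change than Tcf7. Tcf7 thus kept 8.80% of its wild-type mean and Lef1 2.77%; that difference between the pair was not tested.

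The Ikaros family genes also fell. Ikzf1 (chromosome 11, 11685003 to 11772926, plus strand) was at 226 and 224 CPM for wild type and at 29.0 and 25.7 CPM in the knockout-labelled libraries. It fell by 3.04 ± 0.17 SE in log2 units (edgeR adjusted p = 1.51e-05), with means of 225 ± 1.83 and 27.4 ± 2.29 CPM (SD, n = 2). Ikaros is also made in myeloid cells, and the macrophage markers rose in the same libraries, with a median log2 change of 3.67. Their part in the remaining Ikzf1 was not tested. Ikzf3 (chromosome 11, 98464902 to 98546031, minus strand), which encodes the more lymphocyte-restricted Aiolos, was at 164 and 186 CPM against 10.9 and 5.34 CPM. Its means were 175 ± 15.5 and 8.10 ± 3.91 CPM (SD, n = 2), a fall of 21.9-fold (log2 change -4.45 ± 0.32 SE, edgeR adjusted p = 6.42e-05). KO 1 was higher than KO 2 for Ikzf3, Lef1, Satb1 and Foxp3, while Tcf7 went the other way. For Bach2, Ikzf1, Tbx21 and Gata3 the order rested on the scaling or on few counts. How many of all tested genes had KO 1 above KO 2 was not counted. The summed T cell receptor list was higher in KO 1 as well (83.5 against 41.1 CPM), as was the summed B cell list (227 against 96.6 CPM). The part of lymphocyte RNA in this order was not tested.

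Bach2 and Satb1 kept the largest shares of their wild-type level. Bach2 (chromosome 4, 32238804 to 32586108, plus strand) was at 45.3 and 47.0 CPM for wild type and at 13.5 and 11.7 CPM in the knockout-labelled libraries, 27.2% of the wild-type mean. It fell by 1.88 ± 0.22 SE in log2 units (edgeR adjusted p = 0.000297), with means of 46.2 ± 1.15 and 12.6 ± 1.29 CPM (SD, n = 2). Satb1 (chromosome 17, 51736187 to 51833290, minus strand) was at 169 and 196 CPM against 34.4 and 22.0 CPM, 15.4% of the wild-type mean. Its means were 183 ± 19.0 and 28.2 ± 8.77 CPM (SD, n = 2), and it fell by 2.70 ± 0.24 SE in log2 units (edgeR adjusted p = 7.52e-05). A more negative change than that of Bach2 was seen in 10.2% of all tested genes.

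The lineage factors of T cell subsets were scarcer, and their values in the knockout-labelled libraries rest on few counts. Foxp3 (chromosome X, 7579676 to 7595243, plus strand) had 103 and 113 counts in WT 1 and WT 2 and 15 and 6 in KO 1 and KO 2, or 28.3 and 25.4 CPM against 3.02 and 0.971 CPM. It fell 13.8-fold, from 26.9 ± 2.06 to 1.99 ± 1.45 CPM (SD, n = 2, log2 change -3.78 ± 0.45 SE, edgeR adjusted p = 0.000336). Tbx21 (chromosome 11, 97098071 to 97115331, minus strand) had 37 and 43 counts in wild type and 3 and 2 in the knockout-labelled libraries. That is 10.2 and 9.66 CPM against 0.604 and 0.324 CPM, a fall of 20.8-fold (log2 change -4.38 ± 0.55 SE, edgeR adjusted p = 0.000432). The 5 pooled counts have an exact 95% Poisson interval of 1.62 to 11.7 counts. Gata3 (chromosome 2, 9857078 to 9890034, minus strand) had 16 and 21 counts against 3 and 3, at 4.40 and 4.72 CPM against 0.604 and 0.486 CPM. It fell 8.11-fold (log2 change -3.02 ± 0.60 SE, edgeR adjusted p = 0.00434), and its 6 pooled counts have an interval of 2.20 to 13.1 counts. Without KO 2 the change of Gata3 did not pass (log2 change -2.83, edgeR adjusted p = 0.0585).

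Levels were compared between the factors per length. Dividing CPM by the annotated exon length in kilobases (GENCODE M21, union of all exons) gave wild-type levels of 168 ± 3.62 CPM per kilobase for Tcf7, 39.0 ± 0.317 for Ikzf1, 23.2 ± 1.37 for Lef1 and 20.03 ± 1.78 for Ikzf3 (SD, n = 2). Satb1 followed at 9.60 ± 1.00, then Foxp3 at 5.87 ± 0.449, Bach2 at 4.64 ± 0.116, Tbx21 at 3.99 ± 0.143 and Gata3 at 1.15 ± 0.0574 CPM per kilobase. In wild type no neighbours in this order overlapped between libraries. In the knockout-labelled libraries Tcf7 (14.8 ± 0.926) and Ikzf1 (4.74 ± 0.397) still led, and Satb1 (1.48 ± 0.461), Bach2 (1.26 ± 0.130) and Ikzf3 (0.926 ± 0.446) came next. Satb1 overlapped Bach2 and Ikzf3 there, and Bach2 and Ikzf3 overlapped each other. Lef1 (0.642 ± 0.257) overlapped Ikzf3 and Foxp3 (0.436 ± 0.316). Tbx21 (0.186 ± 0.0796) overlapped Foxp3 and Gata3 (0.137 ± 0.0210), so those neighbours did not differ beyond their spread. The counted Foxp3 model starts at 7579676 and the GENCODE gene at 7573644, so its exon length is not that of the counted model. The isoforms present were not known, so a level per length depends on the annotation used.

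Promoter windows of 4 factors are shown because these 4 hold a recognition motif of another factor of the group, or are the extremes of the fall (Lef1 and Bach2). Each runs from 250 bases before to 50 bases after a RefSeq start site (GRCm38.p6), 5′ to 3′ on the gene's strand. The windows are Lef1 chr3:131110073-131110372 (plus strand), Bach2 chr4:32417185-32417484 (plus strand), Foxp3 chrX:7579426-7579725 (plus strand) and Tbx21 chr11:97115282-97115581 (minus strand). Capitals mark matches on either strand to any of 8 motifs searched.
Lef1: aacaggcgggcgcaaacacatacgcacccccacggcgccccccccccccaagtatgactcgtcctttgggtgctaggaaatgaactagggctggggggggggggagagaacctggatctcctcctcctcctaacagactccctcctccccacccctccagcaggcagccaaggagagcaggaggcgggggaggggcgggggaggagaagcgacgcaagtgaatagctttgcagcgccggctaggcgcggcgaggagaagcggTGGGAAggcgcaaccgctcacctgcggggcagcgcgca
Bach2: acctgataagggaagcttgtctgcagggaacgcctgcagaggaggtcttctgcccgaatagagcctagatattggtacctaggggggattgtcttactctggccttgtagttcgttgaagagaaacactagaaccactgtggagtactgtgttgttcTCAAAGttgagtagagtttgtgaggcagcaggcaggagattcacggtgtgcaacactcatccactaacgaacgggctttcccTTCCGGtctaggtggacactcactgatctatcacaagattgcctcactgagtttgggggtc
Foxp3: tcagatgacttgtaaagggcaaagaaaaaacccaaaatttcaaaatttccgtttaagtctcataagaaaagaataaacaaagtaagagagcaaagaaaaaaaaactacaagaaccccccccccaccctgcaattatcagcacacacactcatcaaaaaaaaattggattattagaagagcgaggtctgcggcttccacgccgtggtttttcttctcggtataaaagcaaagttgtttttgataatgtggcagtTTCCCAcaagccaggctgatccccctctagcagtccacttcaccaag
Tbx21: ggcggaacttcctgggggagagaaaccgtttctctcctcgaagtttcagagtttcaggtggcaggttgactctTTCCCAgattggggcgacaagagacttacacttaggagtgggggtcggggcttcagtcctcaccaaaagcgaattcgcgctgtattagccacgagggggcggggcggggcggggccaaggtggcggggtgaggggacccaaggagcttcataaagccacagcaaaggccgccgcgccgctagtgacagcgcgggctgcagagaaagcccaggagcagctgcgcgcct
The capitals in Lef1, Foxp3 and Tbx21 are the Ikaros core TGGGAA or its reverse complement, and those in Bach2 are the TCF/LEF core CTTTGA and the ETS core CCGGAA, both in reverse complement. Of the 9 factors 8 had a window in the table, and the one nearest the 5′ end of the counted model was taken. The Ikaros core was in 3 of the 8, against 25.6% of 32851 mouse windows of the same length. The TCF/LEF core was in 1 of 8 (16.0% of all windows) and the ETS core in 2 of 8 (14.9%). The GATA core AGATAA (11.2% of all windows), the T-box core AGGTGTGA (1.28%), the forkhead core GTAAACA (3.65%), the BACH and AP-1 core TGAGTCA (5.20%) and the RUNX core TGTGGT (16.8%) matched none of the 8. A match describes letters only. The Bach2 window lies 178631 bases inside the counted model, at an internal start site. Those of Gata3, which holds an ETS match, and Ikzf1 have start sites 11434 and 922 bases inside their models. The Lef1 start site lies 148 bases from its model start.

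Relatives from the same families moved in both directions. Of 21 relatives, 15 passed the filter, and of these 5 fell, 3 rose and 7 did not pass, with a median log2 change of 0.18. This median turned to -0.02 with upper quartile scaling and to -0.03 without WT 1. Without KO 1, 2 relatives fell, and without KO 2, 3 did. The TCF genes of epithelia, Tcf7l1 and Tcf7l2, were at 25.4 ± 1.65 and 16.1 ± 0.535 CPM for wild type and at 23.6 ± 2.48 and 24.1 ± 5.57 CPM in the knockout-labelled libraries (SD, n = 2). Neither passed (log2 changes -0.11 and 0.58, edgeR adjusted p = 0.736 and 0.107). Bach1, the broadly expressed relative of Bach2 that represses haem-responsive genes, rose from 55.7 ± 4.75 to 127 ± 8.76 CPM (SD, n = 2, log2 change 1.19 ± 0.17 SE, edgeR adjusted p = 0.000814). It rose while Bach2 fell, the 2 genes passing in opposite directions in the same fit.

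Eomes, the T-box factor of cytotoxic lymphocytes, fell like Tbx21, with 48 and 80 counts in wild type and 1 and 9 in the knockout-labelled libraries (log2 change -4.11 ± 0.59 SE, edgeR adjusted p = 0.000893). Tbx3, a T-box factor outside the lymphoid lineage, rose from 8.63 ± 1.40 to 24.2 ± 0.0930 CPM (SD, n = 2, log2 change 1.49 ± 0.27 SE, edgeR adjusted p = 0.00298). Gata2, a factor of mast cells, progenitors and endothelium, fell by 1.86 ± 0.35 SE in log2 units (edgeR adjusted p = 0.00344). Endothelial markers fell in 7 of 8 (median -1.21), from 1325 and 1273 CPM to 657 and 597 CPM in sum; their part in the fall of Gata2 was not tested. Gata4 and Gata6, factors of endodermal organs, did not pass, at log2 changes of 2.16 and 0.48 (edgeR adjusted p = 0.146 and 0.287). Gata4 had 34 counts in KO 1 and 198 in KO 2. Ikzf2, the Helios gene of regulatory T cells, fell by 1.27 ± 0.33 SE in log2 units (edgeR adjusted p = 0.0162) but missed the threshold without WT 2 or KO 1 (adjusted p in edgeR = 0.0780 and 0.0609). Ikzf4 was at a log2 change of 0.18 and did not pass (edgeR adjusted p = 0.759). Foxp2 fell by 1.48 and Foxp4 rose by 0.53 in log2 units (edgeR adjusted p = 0.00961 and 0.0396). Foxp2 missed the threshold without KO 1 or KO 2 (adjusted p in edgeR = 0.0612 and 0.0589), as did Foxp4 without WT 1, WT 2 or KO 2 (adjusted p in edgeR = 0.219, 0.0544 and 0.124), with upper quartile scaling (0.157) and with DESeq2 (adjusted p = 0.0642). Foxp1 and Tbx2, at log2 changes of -0.42 and 0.62, did not pass (edgeR adjusted p = 0.0688 and 0.157), and Tbx20 fell by 2.33 (edgeR adjusted p = 0.0262) with at most 10 counts in any library. Tbx20 missed the threshold without WT 1, KO 1 or KO 2, with no filter and with DESeq2, and was not tested without WT 2.

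**Figure D2:**
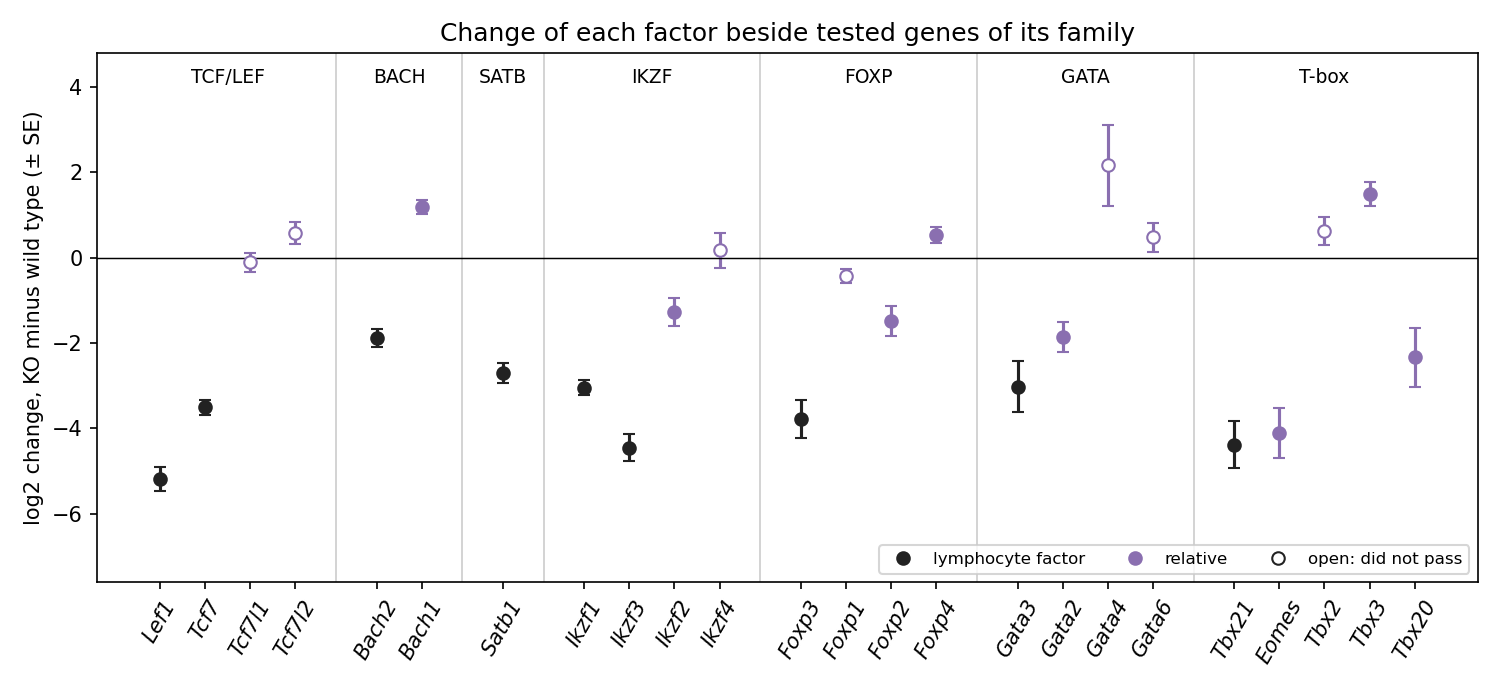
Log2 change (KO minus wild type, with the SE of the fit) of each lymphocyte factor in black and of the tested relatives of its family in purple; open points did not pass the adjusted threshold. The black points lie between -5.19 and -1.88, while the purple points run from -4.11 (Eomes) to 2.16 (Gata4, not passed).

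Other lymphocyte transcription factors fell in the majority. Of 25 such genes, all tested, 17 fell, 4 rose and 4 did not pass, with a median log2 change of -1.47. Eomes, Ikzf2 and Foxp1 are in this list and among the relatives above, and some genes recur in the T cell subset lists below. The counts of these lists are therefore not separate. Spib, a B cell and plasmacytoid dendritic cell factor, fell from 58.6 ± 7.61 to 1.61 ± 0.00620 CPM (SD, n = 2, log2 change -5.16 ± 0.28 SE, edgeR adjusted p = 1.39e-05). Bcl11b, which fixes T cell commitment, fell by 4.51 ± 0.52 SE in log2 units (edgeR adjusted p = 0.00185). Prdm1 rose by 1.28 ± 0.22 SE and Zeb2 by 1.12 ± 0.21 SE in log2 units (edgeR adjusted p = 0.00236 and 0.00366), both of them factors that are also active in macrophages. Runx3 (68.4 and 74.2 CPM against 85.3 and 69.8 CPM) and Bcl6 (36.8 and 44.3 CPM against 49.3 and 57.6 CPM) did not pass (edgeR adjusted p = 0.624 and 0.144). With upper quartile scaling, and also without WT 1 or without WT 2, 2 genes of this list rose instead of 4.

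Marker lists of lymphocytes fell together with the factors. All 17 T cell receptor and signalling genes fell, with log2 changes from -6.54 (Cd8a) to -4.06 and a median of -5.13, and their summed level went from 1949 and 2057 CPM to 83.5 and 41.1 CPM. All 12 B cell genes fell (median -4.17), from 2719 and 2812 CPM to 227 and 96.6 CPM in sum. With no filter, and also without WT 1 or without WT 2, 10 of the 12 fell, Cd79a and Cd79b missing the threshold. Of 10 NK and cytotoxic genes, 7 were tested and 7 fell (median -4.07), from 165 and 176 CPM to 14.1 and 12.6 CPM in sum. In the knockout-labelled libraries 0 of the T cell receptor and B cell genes were at 0 counts, and of the NK genes the defining receptor Ncr1 was. Dendritic cell genes fell in 6 of 8 and rose in 1, Itgax, which missed the threshold with upper quartile scaling (edgeR adjusted p = 0.0820) and without WT 1, WT 2 or KO 1 (adjusted p in edgeR = 0.106, 0.0719 and 0.199). Of the 9 factors 3 (Lef1, Ikzf3 and Tbx21) had changes within the range of the T cell receptor list, and 6 changed by less than every gene of that list. This is a count of point estimates.

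**Figure D3:**
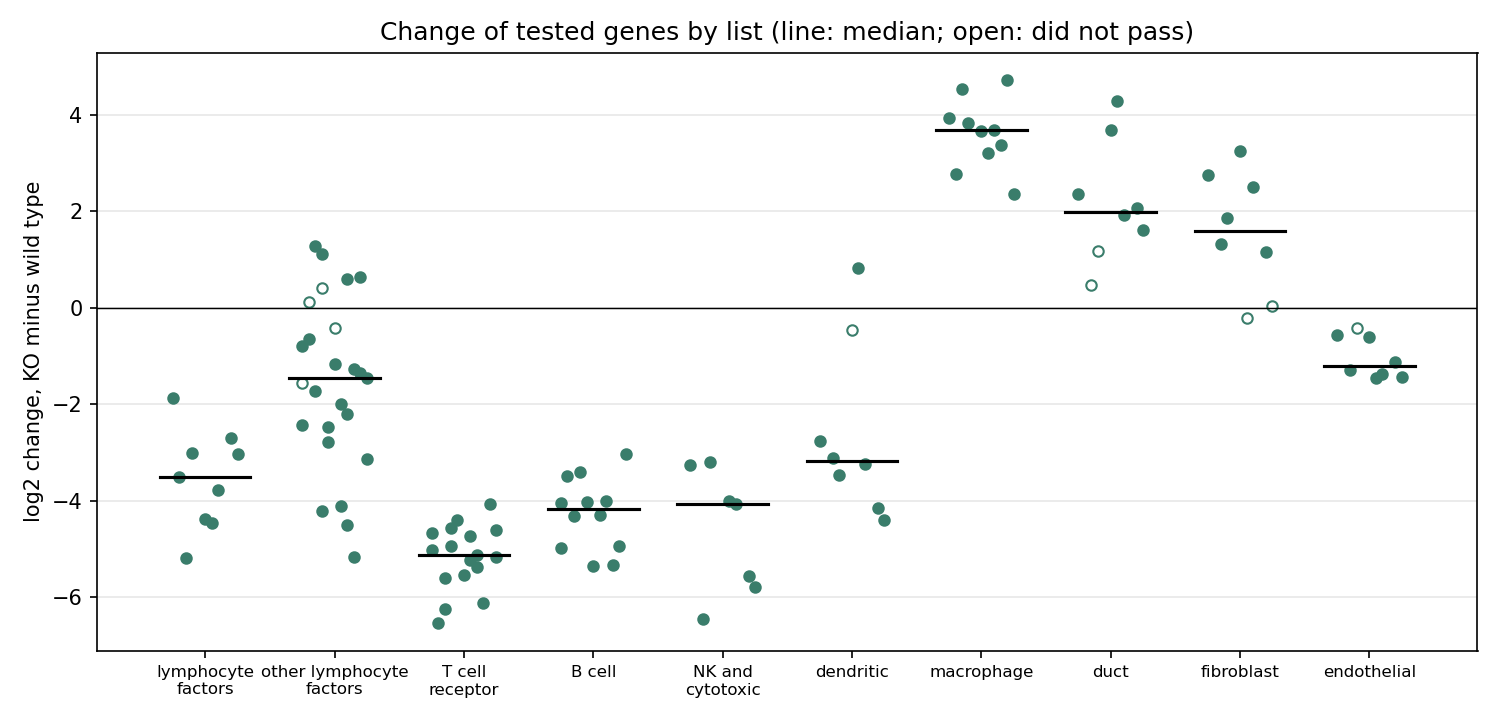
Log2 change (KO minus wild type) of each tested gene, by gene list, with the list median as a line and open points for genes that did not pass. The 9 lymphocyte factors have a median of -3.50, between the T cell receptor list (-5.13) and the other lymphocyte factors (-1.47), while macrophage (3.67) and duct (1.99) genes lie above 0.

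Counts of the factors relative to CD3 were higher in the knockout-labelled libraries, by very different amounts; differences between factors were not tested. The CD3 chains Cd3d, Cd3e and Cd3g, the invariant parts of the T cell receptor complex, had 1378 and 1717 counts in sum in WT 1 and WT 2 and 50 and 36 in KO 1 and KO 2. Per 100 CD3 counts, Lef1 had 51.6 and 55.0 counts in wild type and 72.0 and 69.4 in the knockout-labelled libraries. Bach2 had 12.0 and 12.2 against 134 and 200 counts, and Satb1 44.7 and 50.8 against 342 and 378 counts. For Tcf7 the values were 114 and 116 against 368 and 694 counts, and for Ikzf1 59.8 and 58.0 against 288 and 442 counts. Ikzf3 had 43.4 and 48.3 against 108 and 91.7 counts. The scarcer Foxp3 had 7.47 and 6.58 against 30 and 16.7, Gata3 1.16 and 1.22 against 6 and 8.33, and Tbx21 2.69 and 2.50 against 6 and 5.56 counts per 100 CD3 counts. Pooled over the 2 libraries labelled knockout, Lef1 had 70.9 counts per 100 CD3 counts (exact binomial 95% interval 50.2 to 99.6), with 53.5 (50.4 to 56.8) in wild type. Pooled Bach2 had 162 (123 to 214), with 12.1 (10.8 to 13.5) in wild type. With Cd2 and Lck counts in place of CD3, pooled Bach2 went from 11.9 per 100 in wild type to 96.5 in the knockout-labelled libraries. Pooled Lef1 went from 52.9 to 42.4, but its libraries did not share a direction. Lef1 was at 51.4 and 54.1 in wild type, 34.3 in KO 1 and 64.1 in KO 2. The pooled value leans on KO 1, which had 105 Cd2 and Lck counts against 39 in KO 2. All 9 factors were higher per CD3 count in both libraries labelled knockout than in either wild-type library, as were 97.4% of all tested genes.

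A fit with the summed CD3 counts as the library size tests the same difference. It was chosen after the data were seen. The CD3 counts entered it as fixed values. The counting error of the 50 and 36 counts in KO 1 and KO 2 is thus common to all 9 factors. Their results are therefore not separate from each other. Spread is also estimated partly across genes in this fit, so its p-values do not rest on each gene's 4 libraries alone. Relative to CD3, 96.7% of all tested genes were called higher and 0.129% lower, so the factors' own count, 6 of 9, is below that background. Bach2 was higher by 3.78 ± 0.65 SE in log2 units, Satb1 by 2.91 ± 0.58 SE, Ikzf1 by 2.63 ± 0.57 SE and Tcf7 by 2.20 ± 0.54 SE (edgeR adjusted p = 5.83e-09, 4.90e-07, 4.14e-06 and 5.68e-05). Gata3 and Foxp3 also passed, at 2.55 and 1.75 (edgeR adjusted p = 0.00886 and 0.0233). Lef1 (0.41 ± 0.62 SE), Ikzf3 (1.13 ± 0.61 SE) and Tbx21 (1.16 ± 0.97 SE) did not pass (edgeR adjusted p = 0.512, 0.0649 and 0.235). With Cd2 and Lck as the reference in place of CD3, Bach2 (3.37, edgeR adjusted p = 0.00874) and Satb1 (2.43, edgeR adjusted p = 0.0435) passed, 2 of the 9 factors, while 93.8% of all tested genes were called higher in that fit. Tcf7, Ikzf1, Foxp3 and Gata3 then did not, at 1.84, 2.22, 1.09 and 1.99 (edgeR adjusted p = 0.115, 0.0628, 0.386 and 0.110), and Lef1 was at -0.12. The reference itself was uneven there, with 105 counts of Cd2 and Lck in KO 1 and 39 in KO 2. It too entered the fit as fixed values.

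**Figure D4:**
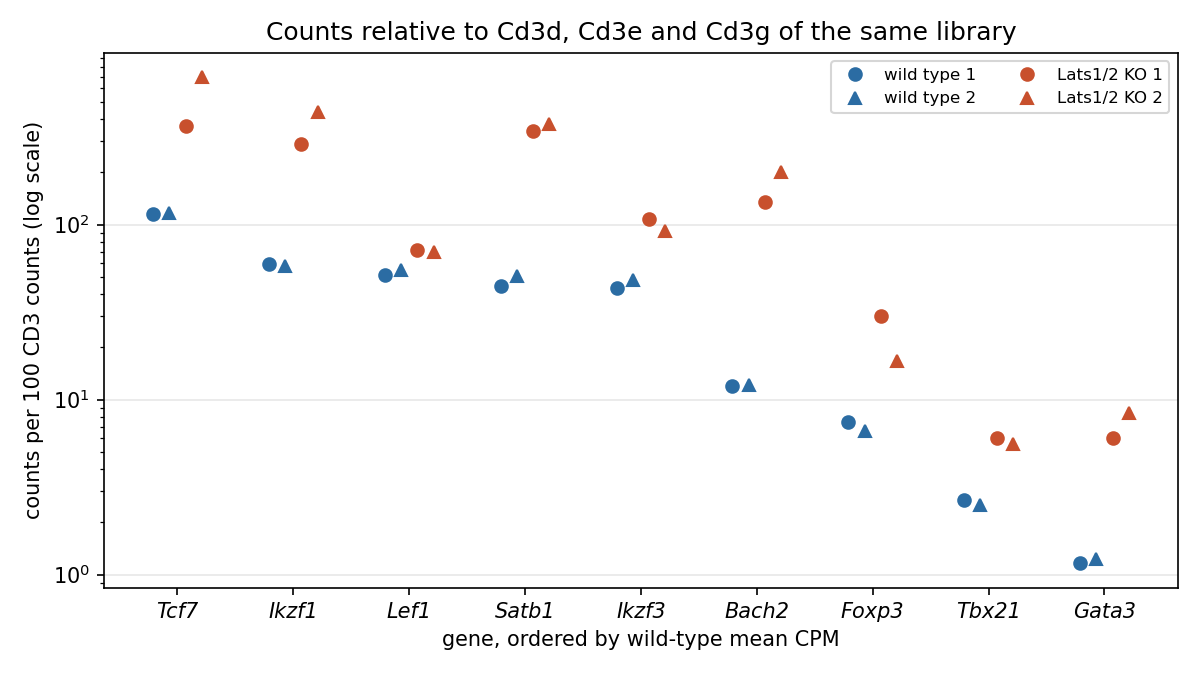
Counts of each lymphocyte factor per 100 summed counts of Cd3d, Cd3e and Cd3g in the same library (log axis), with 1 point per library (blue wild type, orange Lats1/2 KO). The gap between groups is widest for Bach2 (12.0 and 12.2 against 134 and 200) and narrowest for Lef1 (51.6 and 55.0 against 72.0 and 69.4).

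Genes associated with the subsets that these factors direct moved less evenly. Of 8 naive and central memory T cell genes, 7 fell and 1 did not pass, with a median log2 change of -1.65. Dapl1, with 2 counts in the knockout-labelled libraries, had a pooled ratio of 134 (95% interval 36.5 to 1112). Of 9 regulatory T cell genes 6 fell, 2 rose and 1 did not pass. Tnfrsf18, the GITR receptor, and Tnfrsf4, the OX40 receptor, fell, with log2 changes of -2.74 ± 0.39 SE and -2.42 ± 0.59 SE (edgeR adjusted p = 0.000787 and 0.0188). Tnfrsf4 missed the threshold without WT 1 or WT 2 (adjusted p in edgeR = 0.0536 and 0.0697) and changed by -3.76 without KO 1. Against the fall of Foxp3, the cytokine gene Il10 was higher in the knockout-labelled libraries, with only 3 wild-type counts and a pooled ratio of 20.8 (95% interval 6.88 to 103). Lrrc32, which encodes the TGF-beta docking protein GARP, rose from 78.2 ± 11.8 to 227 ± 7.03 CPM (SD, n = 2, log2 change 1.54 ± 0.17 SE, edgeR adjusted p = 0.000252). Both are also made outside regulatory T cells, and macrophage and fibroblast markers rose in the same libraries (medians 3.67 and 1.59); their part was not tested.

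Of 8 genes linked to T-bet, 7 were tested, 5 fell and 2 did not pass (median -2.77). Cxcr3, a chemokine receptor of type 1 T cells, had 30 and 63 counts against 3 and 3 (log2 change -4.32 ± 0.56 SE, edgeR adjusted p = 0.000500). The signature cytokine Ifng had at most 3 counts in any library. Of 8 genes linked to GATA3, 3 were tested and 2 fell; Ccr4, with 1 count in the knockout-labelled libraries, had a pooled ratio of 67.5 (95% interval 11.6 to 2721), and Il17rb fell by 2.78 in log2 units (edgeR adjusted p = 0.0135) but did not pass when any 1 library was left out. The type 2 cytokine genes Il5 and Il13 had at most 1 count in any library.

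Targets of Wnt and beta-catenin, the pathway that acts through TCF and LEF proteins, showed no common direction. Of 10 such genes 8 were tested, and 2 rose, 1 fell and 5 did not pass, with a median log2 change of -0.06. Axin2, the usual readout, was at 53 and 104 counts in wild type and 105 and 85 in the knockout-labelled libraries and did not pass (log2 change -0.13 ± 0.33 SE, edgeR adjusted p = 0.772). Sp5 was higher, with only 2 wild-type counts and a pooled ratio of 25.4 (95% interval 6.77 to 214). Lgr5 rose by 2.73 in log2 units (edgeR adjusted p = 0.00787) from 5 pooled counts, and missed the threshold without KO 1 or KO 2 (adjusted p in edgeR = 0.0973 and 0.0633). Rnf43 fell by 1.17 (edgeR adjusted p = 0.0260) and missed the threshold without WT 2, KO 1 or KO 2 (adjusted p in edgeR = 0.203, 0.134 and 0.0786).

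The genes nearest to each factor in level and pattern were found by Euclidean distance on log2 CPM over the 4 libraries, with predicted and clone-named gene models left out. Nearest to Lef1 were Ms4a1, the B cell antigen CD20, and Gimap3, a GTPase of lymphocytes, at distances of 0.487 and 0.537. Itgb7, an integrin chain of gut-homing lymphocytes, was nearest to Ikzf3 (0.319), followed by Gimap3 (0.512). Trbv3, a T cell receptor variable segment, was nearest to Tbx21 (0.156), followed by Nuggc (0.333). Fcrla, a B cell gene, was nearest to Foxp3 (0.397), followed by Csmd1 (0.419), and Atp2a3, a calcium pump, to Ikzf1 (0.323), followed by Synpo2, a muscle actin-binding gene (0.390). Near Tcf7 were Cyfip2 and Dgka (0.796 and 0.828), the latter a diacylglycerol kinase that restrains T cell receptor signalling. Nearest to Bach2 were Syt11 (0.193) and Gucy1a3, a guanylate cyclase subunit (0.281). Satb1 had Cd55 (0.240) and Rcsd1 (0.431), and Gata3 had Havcr1 (0.330) and Ppp1r3c (0.360). Not all of these are lymphocyte genes. With 4 libraries and 2 groups, such distances mainly reflect the 2 group levels.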

How the data were processed

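Samples of the mouse pancreas labelled as ducts had been sequenced in 4 RNA libraries, 2 labelled wild type and 2 labelled Lats1/2 knockout. Markers of other cells were present in them, as given above. The deposited values are unnormalised counts of reads for each gene model; per the submitters' processing notes the build was mm10 and TopHat and edgeR were used, without versions. No source used here gives the counting program, its annotation or its use of strand. Totals ranged from 3566387 to 5925601 counts, so 3 counts corresponded to between 0.506 and 0.841 CPM. Intervals at 95% cover counting error only.

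Low counts were removed by filterByExpr, TMM set the scaling, and edgeR 4.0.16 in R 4.3.3 made the tests (robust glmQLFit, glmQLFTest, genotype as the only term, 4 libraries, 2 residual degrees of freedom), with Benjamini-Hochberg adjustment over all 13990 tested genes and a threshold of 0.05. The procedure was tested on simulated counts in which few genes changed, evenly in both directions and only above a count floor. That setting covers neither the many changed genes of these data nor counts as low as those of Gata3. The 9 genes and all gene lists were chosen with earlier results of these data known. Named genes are the 9 factors, tested relatives of their families, up to 4 changed genes per list (the largest rises and falls), the CD3, Lats1, Lats2 and Ctgf genes, and the 2 genes nearest to each factor. Bcl6, Runx3, Axin2, Itgax, Cd79a, Cd79b, Cd8b1, Ncr1, Ifng, Il5 and Il13 are named outside that rule, after their values were seen. Cell type marker lists are given mainly by counts and sums, so some genes that the rule names are not reported here. Alternatives were RLE, upper quartile and no scaling, DESeq2 1.42.0, no filter, a replicate block and leaving out each library.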

Additional observations from a re-analysis of the deposited data

How the results depend on the processing

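With 2 libraries per group the fit has 2 residual degrees of freedom. All 9 factors stayed lower in each of the 10 alternatives, and 8 of them passed in each of the 10. Gata3, with 3 counts in each library labelled knockout, missed the threshold without KO 2 (-2.83 in log2 units, edgeR adjusted p = 0.0585), and its change ranged from -3.16 to -2.83 when 1 library was left out. Foxp3 ranged from -4.75 to -3.11 in the same runs and passed in each. All genes changed numbered 5909, and 4206 to 4608 when 1 library was left out. The median change of relatives turned to -0.020 with upper quartile scaling, and ranged from -0.027 (without WT 1) to 0.38 when 1 library was left out. The Wnt target median turned to 0.048 with no filter, 0.26 without WT 2 and 0.25 without KO 2, being -0.22 without WT 1, and the type 2 median to 0.042 with no filter. Relative to Cd2 and Lck in place of CD3, Lef1 turned from 0.41 to -0.12, neither of them passing. The cause of these changes was not tested. Replicate numbers are shared between groups, but the correlation across genes of the replicate differences in the 2 groups was 0.0355 over 13990 genes, so they were not used to pair samples. With the replicate number as a block 6656 genes changed and all 9 factors passed, while Cd8b1, Cd79a and Cd79b did not (edgeR adjusted p = 0.155, 0.0541 and 0.0685).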

Other observations

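Some gene models inside the factors, counted separately, had fewer counts in the knockout-labelled libraries; others had too few counts to compare. Gm26551, a non-coding model on the strand of Tcf7 that shares 0 annotated exon bases with it, had 50 and 54 counts in wild type and 6 and 4 in the knockout-labelled libraries. Inside Satb1 and on its strand, C230085N15Rik had 47 and 48 counts against 8 and 1, E430014B02Rik 35 and 56 against 6 and 4, and Gm37248 31 and 41 against 7 and 0. Gm42449 inside Lef1 had 12 and 19 counts against 0 and 0. These models were picked after their counts were seen, and no test was made of them. Whether their reads come from unspliced transcripts of the factors was not tested. On the opposite strand, Bach2os, which shares 537 exon bases with Bach2, had 12 and 17 counts against 9 and 8. No source used here gives the use of strand in counting. Reads of such overlapping pairs may be split or shared, so the values of Bach2 carry that uncertainty. The same holds for Lef1, which shares 1208 exon bases with Gm43352 on the opposite strand (at most 3 counts in any library). It holds as well for Foxp3, which shares 590 exon bases with the protein-coding Ccdc22 on the opposite strand. Ccdc22 had 0 counts in every library. Satb1 and Gata3 also share exon bases with other models. Flicr, which shares 853 exon bases with Foxp3 on the same strand, had at most 1 count in any library.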
